A study of Mus musculus with 6 samples.

Results

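The genes described here are those of the proteasome, taken as the protein-coding mouse genes whose symbols begin with Psm, a letter from a to g and a digit. The rule found 50 genes among the 41214 rows of the deposited table. They comprise the outer and inner rings of the core particle, the immune variants of its catalytic subunits, the ATPases and other subunits of the regulatory particle, separate activators and an inhibitor, and assembly factors. Psmc3ip is a match by symbol alone, since its product works in meiotic recombination and is no proteasome subunit.

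RNA was measured in sorted cardiac endothelial cells of mouse embryos, in 3 groups of 2 libraries each. KO cells are labelled Dll4-/- and came from crosses that leave both alleles of Dll4, which encodes a Notch ligand, floxed. Het cells are labelled Dll4+/-, from a cross that leaves 1 allele floxed, and wt cells are labelled WT. All 3 groups, wt included, had the Pdgfb-iCreERT2-IRES-EGFP transgene, in which the endothelial Pdgfb promoter drives a tamoxifen-inducible Cre and a green fluorescent protein. Tamoxifen was given to every group at E13.5 (embryonic day) and hearts were taken at E14.5. Cells positive for CD31 and GFP were sorted from hearts gathered across several litters, and no label ties a library to an animal or litter. The p-values therefore measure only the spread between these libraries, which may be partly technical.

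The proteasome degrades proteins tagged with ubiquitin. Its core particle is a barrel of stacked rings whose inner surfaces cut the substrate, and its regulatory particle binds ubiquitin chains, unfolds the substrate with a ring of ATPases and feeds it through the gate of the outer ring. In cells exposed to interferon, immune variants replace the catalytic subunits and an alternative activator can cap the barrel, which changes the peptides offered for antigen presentation.

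Levels are CPM, counts scaled to a common library total, computed from the authors' expected counts with TMM scaling, and a gene is called where the edgeR quasi-likelihood test gave a p under 0.05 after Benjamini-Hochberg adjustment across all 10952 tested genes. Library totals were 6501798 and 4988014 counts in KO, 1537908 and 3165552 in het, and 2521534 and 1732136 in wt. Dll4 itself stood at 19.4 and 13.7 CPM in KO, 81.2 and 85.8 CPM in het, and 196 and 183 CPM in wt. The 8 endothelial markers summed to 4456 to 4682 CPM in KO, 5184 to 5451 CPM in het and 5429 to 5718 CPM in wt, and none was at 0 in every library. These markers did not move together in KO against wt, as 2 were called higher and 3 lower of 8. Cdh5, the endothelial cadherin, averaged 401 ± 28.1 CPM in KO and 1955 ± 37.5 CPM in wt (SD, n = 2 each). That fall was larger than the fall in the sum of the 8 markers, so the lower KO sum rests on Cdh5. Erg and Emcn were also lower in KO, and Tek and Kdr were higher. The 7 cardiomyocyte markers summed to 28.3 to 30.8 CPM in KO, 122.5 to 137.5 CPM in het and 53.8 to 64.2 CPM in wt, and the 7 mural or fibroblast markers to 13.7 to 45.2 CPM in KO, 73.4 to 117 CPM in het and 26.1 to 49.99 CPM in wt. The KO libraries also stood apart in makeup, since the row of Lars2, a mitochondrial leucyl-tRNA synthetase, took 0.0572% and 0.0611% of counts in KO, 17.1% and 16.4% in het, and 16.3% and 16.7% in wt. No batch is given in the sources used here, so a difference in preparation and the genotype cannot be told apart. In such pooled cells, fewer cells of a type and less RNA per cell cannot be told apart either.

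Promoter sequences from RefSeq on build GRCm38.p6 matched 42 of the 50 genes, with 45 windows in all because some genes have more than 1 start. The 250 bases upstream of each start were searched on both strands for 8 short motifs. The ETS core CCGGAAG stood in 14 of the 45 proteasome windows (31.1%), against 6.91% of all 32851 windows, in 13 genes. These background windows were not limited to genes expressed in these cells. How the shares compare with those of other genes of similar level was not tested. The antioxidant response element TGACNNNGC, the sequence bound by Nfe2l1 and Nfe2l2, which drive proteasome genes, stood in 5 windows (11.1%), against 10.2% of all windows. The NF-Y box CCAAT stood in 15 windows (33.3%), against 33.8% of all windows, and the Myc E-box CACGTG in 4 windows (8.89%), against 6.02%. The palindromic nuclear respiratory factor site stood in 1 window, that of Psma2, against 0.782% of all windows. The interferon response motif stood in 3 windows, against 2.98% of all windows. The E2F site TTTCGCGC and the heat shock element were in none of the 45 windows, against 0.256% and 0.466% of all windows.

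The upstream sequences of 4 called genes are shown, up to the first annotated exon, which left 223 bases for Psmb5, in lower case with these motifs in capitals, because 3 of them share the ETS core but not the direction of change between KO and wt, and the other holds the antioxidant response element. Psmd2 (chr16:20651402-20651651, plus strand) was higher in KO and holds an ETS core as its reverse complement.
Psmd2: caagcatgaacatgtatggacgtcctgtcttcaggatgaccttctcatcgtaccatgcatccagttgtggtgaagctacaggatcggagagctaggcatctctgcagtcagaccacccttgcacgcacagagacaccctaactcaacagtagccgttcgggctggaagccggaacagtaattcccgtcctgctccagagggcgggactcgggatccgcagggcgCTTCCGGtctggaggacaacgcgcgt
Psme3 (chr11:101315963-101316212, plus strand) was also higher in KO and holds an ETS core, a Myc E-box and an NF-Y box on the reverse strand.
Psme3: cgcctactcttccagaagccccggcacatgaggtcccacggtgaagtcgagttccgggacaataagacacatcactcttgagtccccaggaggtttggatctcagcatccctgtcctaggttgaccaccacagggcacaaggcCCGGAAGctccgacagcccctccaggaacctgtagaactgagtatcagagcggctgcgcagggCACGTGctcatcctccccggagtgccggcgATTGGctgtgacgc
Psmd11 (chr11:80428365-80428614, plus strand) was lower in KO and holds an ETS core as its reverse complement.
Psmd11: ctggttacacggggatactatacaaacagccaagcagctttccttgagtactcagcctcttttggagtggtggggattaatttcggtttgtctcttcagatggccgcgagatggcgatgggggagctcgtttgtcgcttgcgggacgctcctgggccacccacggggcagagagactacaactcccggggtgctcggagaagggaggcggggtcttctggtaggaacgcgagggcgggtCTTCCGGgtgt
Psmb5 (chr14:54618023-54618245, minus strand) was lower in KO and holds an antioxidant response element.
Psmb5: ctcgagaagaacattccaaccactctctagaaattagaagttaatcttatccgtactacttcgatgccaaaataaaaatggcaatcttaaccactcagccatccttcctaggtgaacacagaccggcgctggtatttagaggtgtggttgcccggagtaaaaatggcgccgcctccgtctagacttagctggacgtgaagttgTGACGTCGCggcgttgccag
A match describes the letters of a window and says nothing of a bound factor. The 4 called genes with an ETS core included 2 that rose in KO, Psmd2 and Psme3, and 2 that fell, Psmd11 and Psme4.

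Before any comparison, the genes differed in level by role. Per kilobase of the principal transcript, the median of the 14 tested core genes was 144.6 CPM in KO, 141 CPM in het and 166.3 CPM in wt. The median of the 17 regulatory particle genes was 114.2 CPM per kilobase in KO, 88.3 in het and 88.9 in wt. In wt the core genes ran from Psma2 at 75.96 CPM per kilobase to Psmb6 at 286, and the regulatory genes from Psmd1 at 53.4 to Psmc4 at 212. The activators and the inhibitor had a wt median of 46.3 CPM per kilobase and the assembly factors one of 22.0. Core subunits, which the finished particle holds in equal number, thus spanned 3.77-fold in wt in CPM per kilobase. That span depends on the annotated lengths, which were 2911 bases for Psma2 and 798 for Psmb6. Undivided, their wt means were 221 and 228 CPM. Which transcripts these cells express was not tested.

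**Figure D1:**
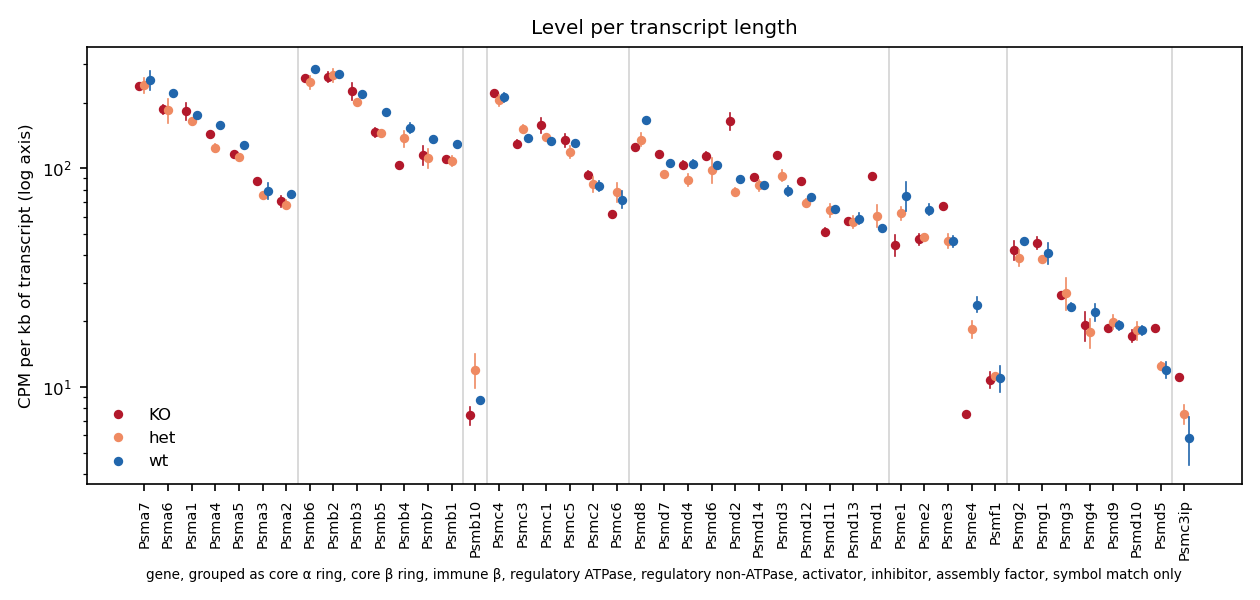
Level of each tested gene in CPM per kilobase of transcript (log axis), for KO, het and wt from left to right within each gene; points are means of 2 libraries and lines join the 2 libraries. Core and regulatory genes lie mostly above the activators and assembly factors, and Psmb10 lies far below the other β genes.

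Of the 50 genes, 45 had enough counts to be tested. Comparing KO with wt, groups that differ in library makeup as well as in Dll4, 12 of 45 were called (26.7%), against 32.0% of all tested genes. Of these, 5 were higher in KO, against a background of 14.7% for that direction, and 7 were lower, against 17.3%. The share of proteasome genes called was thus near the background. Their median log2 change was -0.04, against -0.02 over all tested genes. Most of the genes moved little, as 32 of 45 (71.1%) lay within 0.25 of 0 on the log2 scale, against 32.9% of all tested genes. The proteasome genes were also more abundant, with a median of 155.2 CPM against 33.9 CPM over all tested genes. Only Psme4 was both called and changed at least 2-fold. Scaling by library size alone called 22 proteasome genes higher and 1 lower in KO, with 3878 higher and 1034 lower over all tested genes, as the median log2 change of all tested genes moved to 0.35. Without wt replicate 4 the count was 6, of which 5 were higher.

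**Figure D2:**
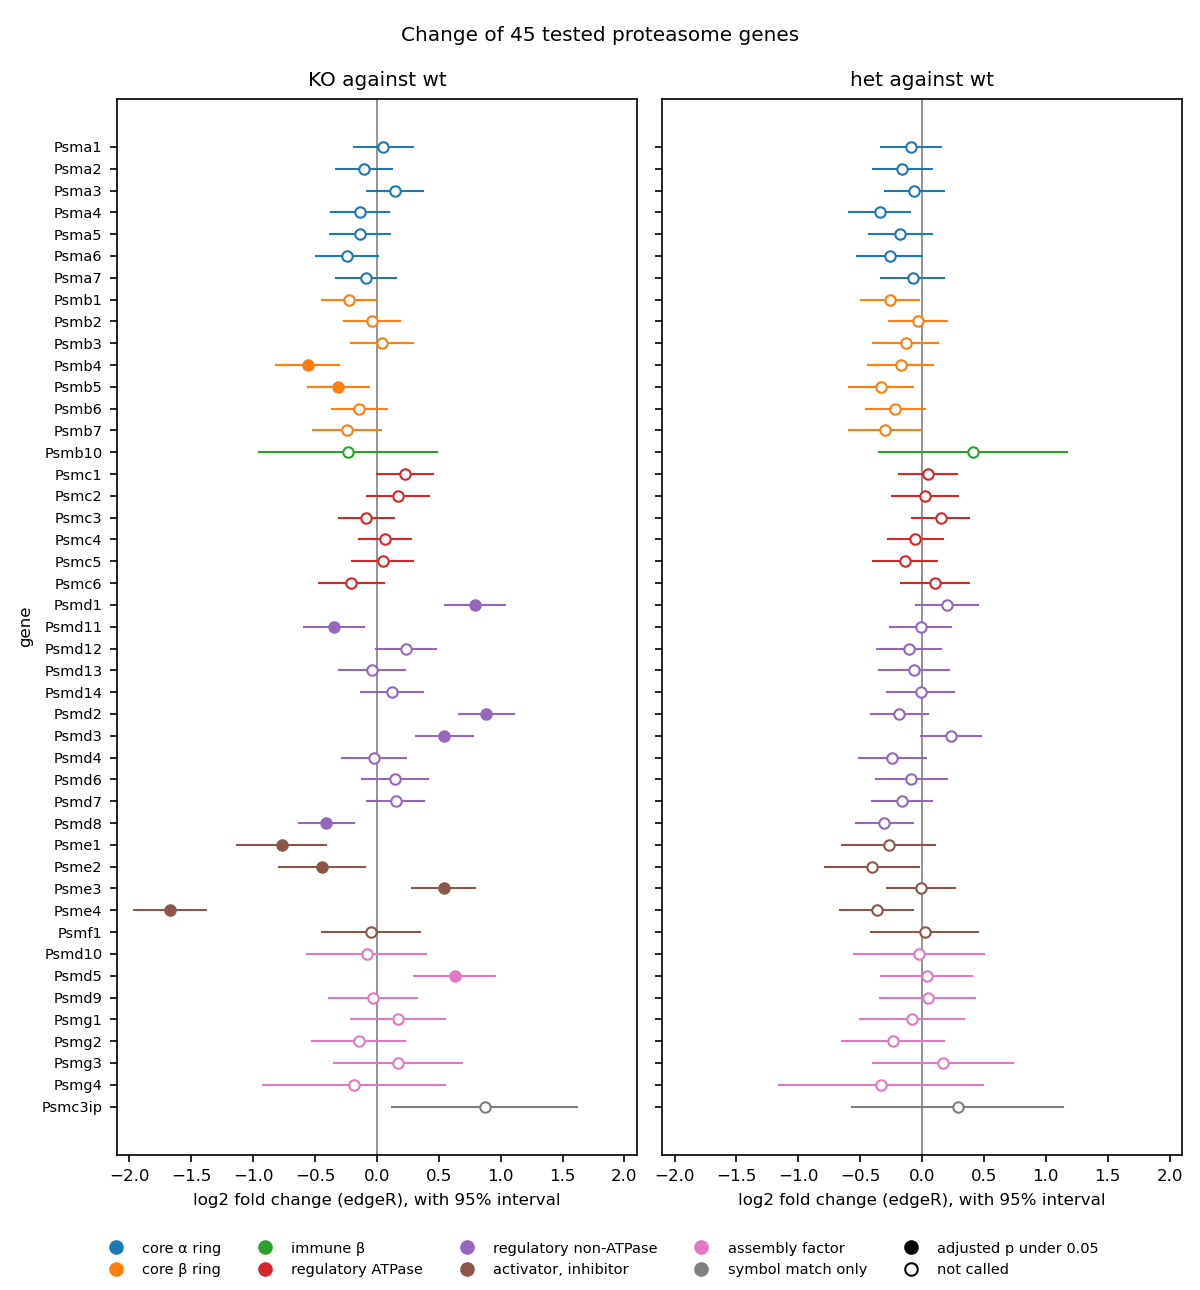
Log2 fold change with its 95% interval for the 45 tested genes, KO against wt on the left and het against wt on the right, coloured by role; filled points were called. Psmd1, Psmd2, Psmd3, Psmd5 and Psme3 lie to the right in KO against wt, Psme4 lies farthest to the left, and no point is filled in het against wt.

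The outer ring of the core particle, made of the Psma subunits and holding the gate, had no called gene among 7 tested in KO against wt. Its log2 changes ran from -0.24 to 0.15 with a median of -0.10, and the lowest adjusted p by edgeR was 0.131. Psma6, an outer ring subunit, had 184.5 and 204 CPM in KO, 217 and 169 CPM in het, and 226.5 and 232 CPM in wt. Both KO libraries lay below both wt libraries, and the het libraries spread across the KO range. Psma3, another outer ring subunit, had 248 and 249 CPM in KO, 205 and 223 CPM in het, and 206 and 244 CPM in wt, so both KO libraries were above all others. RSEM assigned reads to 6 near copies of Psma3, which held 2.07% of its own count. Psma4 had 163 and 170.5 CPM in KO, 151 and 139 CPM in het, and 187.5 and 178.5 CPM in wt, with wt highest and het lowest. Psma8, the testis form of an outer ring subunit, had 7 and 8 reads in KO, 1 and 1 in het, and 3 and 1 in wt and was not tested.

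In the inner ring, which holds the cutting sites, 2 of 7 genes fell in KO, against 17.3% of all tested genes. The median log2 change of the ring was -0.22. Psmb4, a subunit without a cutting site (chr3:94884093-94886961, minus strand), had 126 and 119 CPM in KO, 176 and 148 CPM in het, and 190.5 and 171 CPM in wt. The KO libraries were lowest, and the het range overlapped that of wt. The log2 change between KO and wt was -0.56 ± 0.12 (SE, n = 2 libraries each), with an edgeR adjusted p of 0.00119, and without wt replicate 4 it was 0.0718. With scaling by library size alone the log2 change of Psmb4 was -0.20. Psmb5, the subunit with the chymotrypsin-like site (chr14:54614119-54618022, minus strand), had 126 and 137 CPM in KO, 135 and 126 CPM in het, and 162 and 164.5 CPM in wt. Here wt was above both other groups, which overlapped. Its log2 change of -0.31 ± 0.12 (SE) passed narrowly, with an edgeR adjusted p of 0.0470. With scaling by library size alone it was 0.05, so the direction of Psmb5 turned, and leaving out any 1 of the KO or wt libraries raised the adjusted p to between 0.0892 and 0.278.

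The subunits with the other cutting sites were not called. Psmb6, with the caspase-like site, had 200.5 and 214 CPM in KO, 211.5 and 184 CPM in het, and 232.5 and 224 CPM in wt. Psmb7, with the trypsin-like site, had 120.0 and 146 CPM in KO, 142 and 117 CPM in het, and 156 and 159 CPM in wt. In both genes the wt libraries were above the others, by less than the test required, with edgeR adjusted p of 0.347 for Psmb6 and 0.166 for Psmb7 in KO against wt. Psmb1, a subunit without a cutting site, had 196 and 192.5 CPM in KO, 200.1 and 180.4 CPM in het, and 231 and 222 CPM in wt, with wt again above the rest and an adjusted p of 0.118 by edgeR.

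The immune variants were scarce in all 3 groups. Psmb8, the interferon-induced counterpart of Psmb5, had 5 and 2 reads in KO, 7 and 5 in het, and 2 and 2 in wt. Psmb9, the counterpart of Psmb6, had 1 and 0 reads in KO, 3 and 6 in het, and 0 and 2 in wt. Psmb11, the thymic variant, had 2 and 0 reads in KO, 0 and 2 in het, and 1 and 0 in wt. These 3 genes were not tested, and Psmb9 shares exons with Tap1.

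Relative to the constitutive partner, Psmb8 made up 0.514% and 0.247% of the summed reads of Psmb8 and Psmb5 in KO, 3.57% and 1.37% in het, and 0.526% and 0.763% in wt. The exact 95% binomial interval of the highest, in het replicate 2, was 1.45% to 7.22%. It lay above the KO intervals, which reached 1.2% in replicate 1 and 0.888% in replicate 2, and overlapped the wt intervals, which reached 1.89% in replicate 4 and 2.73% in replicate 5. The interval of het replicate 3, from 0.445% to 3.16%, overlapped those of both other groups. Intervals cover counting error only. Psmb9 made up 0.0647% and 0% of reads with Psmb6 in KO, 1% and 1.12% in het, and 0% and 0.562% in wt. The 0 in KO replicate 2 allows up to 0.292% and that in wt replicate 4 up to 0.677% (exact binomial). The Psmb9 interval of het replicate 3, from 0.413% to 2.43%, lay above the KO upper bounds of 0.36% and 0.292% and overlapped the wt intervals, and that of het replicate 2, from 0.207% to 2.89%, overlapped both.

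Psmb10, the counterpart of Psmb7 and the one immune variant with enough reads, had 10.6 and 8.82 CPM in KO, 18.5 and 12.9 CPM in het, and 11.6 and 11.4 CPM in wt. Its share of reads with Psmb7 was 8.15% and 5.69% in KO, 11.6% and 9.97% in het, and 6.89% and 6.69% in wt. The het libraries were highest in both measures. The log2 change was -0.23 in KO against wt, with an edgeR adjusted p of 0.651, and 0.41 in het against wt, with an adjusted p of 0.812. The 7 leukocyte markers, none at 0 in every library, summed to 7.13 to 24.7 CPM in KO, 49.2 to 172 CPM in het and 19.3 to 53.8 CPM in wt. The highest sum was in het, but the het range overlapped that of wt. The part of these markers in the values of Psmb8, Psmb9 and Psmb10 was not tested.

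The 6 ATPases of the regulatory particle had no called gene in KO against wt and a median log2 change of 0.05, from -0.21 to 0.23. Psmc1, whose tail helps to open the gate, had 229.7 and 270.1 CPM in KO, 223 and 218 CPM in het, and 219.6 and 206 CPM in wt, with KO above the rest and an edgeR adjusted p of 0.120. Psmc6 had 142 and 135 CPM in KO, 191 and 157 CPM in het, and 146 and 175 CPM in wt, with KO lowest. Psmc2 had 159.6 and 173.5 CPM in KO, 164 and 139.6 CPM in het, and 141 and 156 CPM in wt, where KO and het overlapped.

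Among the 11 other subunits of the regulatory particle, 3 rose and 2 fell in KO, against 14.7% and 17.3% of all tested genes. The 3 that rose were Psmd2 and Psmd1, the large scaffolds of the base, and Psmd3, a subunit of the lid. Psmd2, which binds ubiquitin receptors that carry substrate (chr16:20651652-20663414, plus strand), had 443 and 529.9 CPM in KO, 222 and 239.8 CPM in het, and 262 and 265 CPM in wt. Every KO library was above every other library, and het was below wt. The log2 change was 0.88 ± 0.11 (SE, n = 2 libraries each), a 1.85-fold difference, with an edgeR adjusted p of 1.9e-06.

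Psmd1, the other scaffold of the base (chr1:86064387-86139151, plus strand), had 285 and 289.7 CPM in KO, 167 and 211 CPM in het, and 164 and 168 CPM in wt. KO stood apart from both groups, while het and wt overlapped. The log2 change between KO and wt was 0.79 ± 0.12 (SE), with an edgeR adjusted p of 2.1e-05. Some exons of Psmd1 overlap Gm21972 and Htr2b. Psmd3, in the lid (chr11:98682554-98695979, plus strand), had 255.5 and 241 CPM in KO, 187 and 210.4 CPM in het, and 178 and 161 CPM in wt. All 3 groups were separate, with het between, and the log2 change of KO against wt was 0.54 ± 0.11 (SE), with an edgeR adjusted p of 6.72e-04. An opposite-strand gene, Gm12356, overlaps Psmd3, and the kit does not mark strand.

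The 2 that fell are also lid subunits. Psmd8 had 189 and 197 CPM in KO, 223 and 194 CPM in het, and 258 and 255 CPM in wt. Both wt libraries were above the rest, and het overlapped KO. Its log2 change was -0.41 ± 0.11 (SE), with an edgeR adjusted p of 0.00522, and of 0.0869 without wt replicate 4 and 0.0596 without KO replicate 1. With scaling by library size alone the log2 change of Psmd8 was -0.05. Psmd11, which clamps the regulatory particle to the core, had 139.6 and 152.5 CPM in KO, 171 and 195 CPM in het, and 188 and 183 CPM in wt, with KO lowest and het overlapping wt. Its log2 change was -0.35 ± 0.11 (SE), with an edgeR adjusted p of 0.0244, and 0.02 with scaling by library size alone. Leaving out any 1 of the KO or wt libraries raised the adjusted p of Psmd11 to between 0.0554 and 0.219. Copies of Psmd11 held 5.01% of its own count, so its reads are uncertain. The ubiquitin receptor Psmd4 and the deubiquitinase Psmd14 had log2 changes of -0.02 and 0.12, and were not called.

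**Figure D3:**
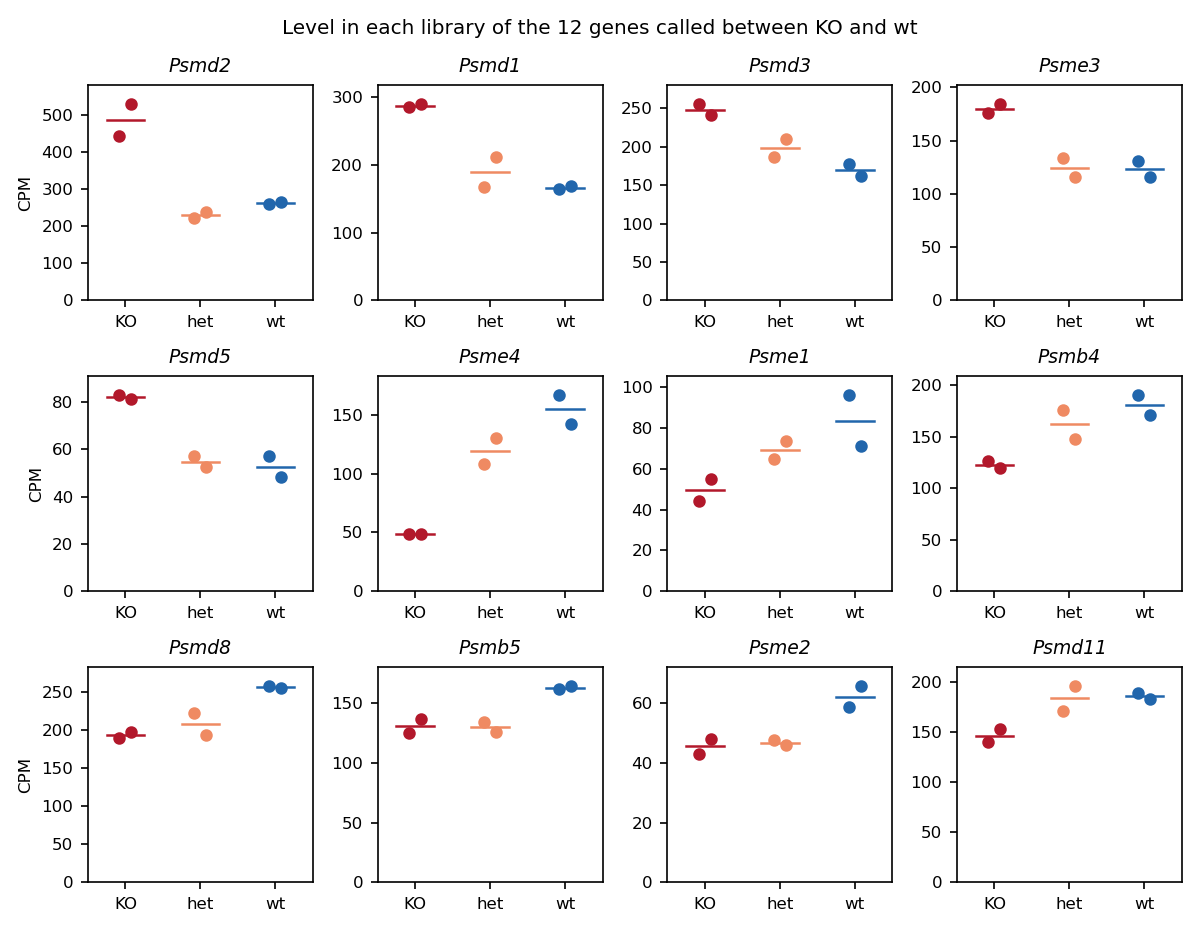
CPM in each library (points) and the mean (line) for the 12 genes called between KO and wt, with KO, het and wt from left to right. Psmd2, Psmd1, Psmd3, Psme3 and Psmd5 are highest in the KO libraries, and the other 7 genes are lower in KO than in wt.

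The activators, which cap the core in place of the regulatory particle, moved in both directions. Of the 5 tested genes, which include the inhibitor Psmf1, 1 was higher and 3 lower in KO, against 14.7% and 17.3% of all tested genes. Psme4, a large single-chain activator linked to degradation of acetylated histones (chr11:30771726-30880361, plus strand), had 49.0 and 48.4 CPM in KO, 108 and 130 CPM in het, and 166.5 and 142 CPM in wt. The 3 groups did not overlap, with het between. The log2 change of KO against wt was -1.67 ± 0.14 (SE, n = 2 libraries each), a 3.19-fold lower level, with an edgeR adjusted p of 1.17e-08. Psme3, a nuclear activator, had 176 and 184 CPM in KO, 133 and 115.5 CPM in het, and 131 and 116 CPM in wt. The KO libraries were above the rest and het overlapped wt, and the log2 change was 0.54 ± 0.12 (SE), with an edgeR adjusted p of 0.00189.

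Psme1 and Psme2 form the interferon-induced activator ring together. Psme1 had 44.2 and 55.0 CPM in KO, 64.8 and 73.6 CPM in het, and 95.9 and 70.9 CPM in wt. KO was lowest and het overlapped wt, and the log2 change of KO against wt was -0.77 ± 0.17 (SE), with an edgeR adjusted p of 0.00154, and of 0.154 without wt replicate 4. Psme2 had 43.0 and 48.2 CPM in KO, 47.7 and 46.1 CPM in het, and 58.6 and 65.8 CPM in wt, with wt above the other groups. Its log2 change was -0.44 ± 0.17 (SE), with an edgeR adjusted p of 0.0455, and of 0.0709 to 0.258 without any 1 of the KO or wt libraries. With scaling by library size alone the log2 changes were -0.41 for Psme1 and -0.08 for Psme2. Psme2b, a close copy of Psme2, had 3 and 2 reads in KO, 2 and 0 in het, and 0 and 0 in wt, and was not tested. The inhibitor Psmf1 had 37.7 and 44.4 CPM in KO, 42.0 and 43.6 CPM in het, and 47.5 and 36.1 CPM in wt, and all groups overlapped.

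Of the 7 assembly factors, 1 rose in KO, against 14.7% of all tested genes. Psmd5, a chaperone of the ATPase ring, had 82.7 and 80.9 CPM in KO, 57.0 and 52.3 CPM in het, and 56.9 and 48.1 CPM in wt. The KO libraries were above the rest, het overlapped wt, and the log2 change was 0.63 ± 0.16 (SE), with an edgeR adjusted p of 0.00393, and of 0.0634 without wt replicate 5. Psmg1, a chaperone of the outer ring, had 44.7 and 50.7 CPM in KO, 41.3 and 39.1 CPM in het, and 38.1 and 47.5 CPM in wt. Its partner Psmg2 had 40.4 and 49.2 CPM in KO, 37.7 and 45.02 CPM in het, and 49.7 and 49.4 CPM in wt. In both, KO overlapped het or wt. Psmc3ip, which is no proteasome gene, had 13.8 and 14.8 CPM in KO, 10.7 and 8.72 CPM in het, and 9.42 and 5.69 CPM in wt, with an edgeR adjusted p of 0.0692 in KO against wt.

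Core genes had lower log2 changes than regulatory genes in KO against wt, with medians of -0.14 and 0.12 under TMM and of 0.23 and 0.48 with scaling by library size alone. Of the 14 core genes, 11 had a log2 change below 0 with TMM scaling and 1 with scaling by library size alone. Over all 10952 tested genes these counts were 5569 and 3144. Of the 17 regulatory genes, 11 had a log2 change above 0 with TMM scaling and 16 by library size alone. The counts above 0 over all tested genes were 5382 and 7807. The summed core CPM over the summed regulatory CPM, a ratio within each library that scaling does not alter, was 0.726 and 0.739 in KO, 0.854 and 0.793 in het, and 0.903 and 0.912 in wt. The 3 groups were separate, with het between. Leaving out Psmd1, Psmd2 and Psmd3, a choice made after their values were seen, the ratio was 1.02 and 1.04 in KO, 1.05 and 1.02 in het, and 1.12 and 1.13 in wt. KO and het then overlapped, with wt still highest. Across the 45 genes, the log2 change of KO against wt correlated with transcript length (Spearman 0.312, against 0.0608 over 10903 tested genes). With trends in length and GC content removed, a setting chosen after seeing the data, the log2 changes were -0.39 for Psmb4 and -0.09 for Psmb5. For the called regulatory genes they were 0.58 for Psmd1, 0.68 for Psmd2, 0.57 for Psmd3, -0.30 for Psmd8 and -0.55 for Psmd11. Medians of core and regulatory genes were not computed in that setting. The part of transcript length in their difference was not tested.

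**Figure D4:**
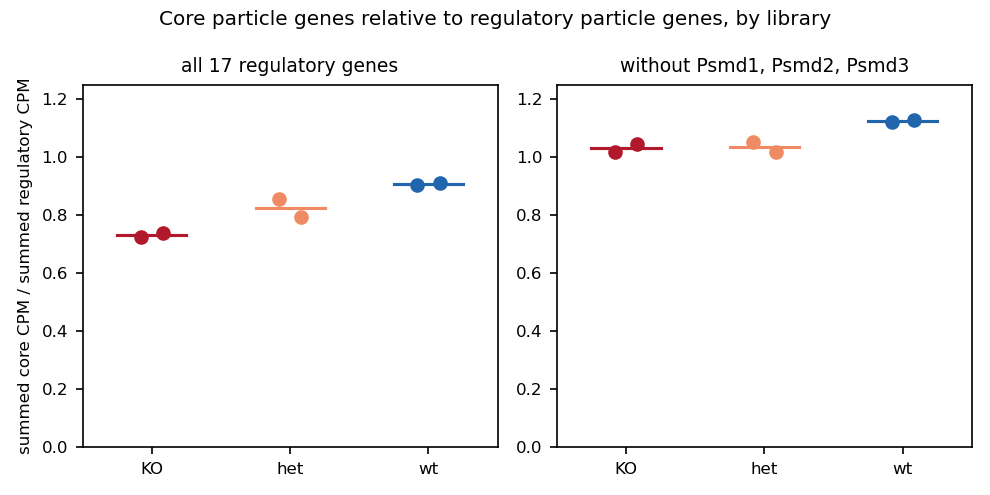
Summed CPM of core genes over summed CPM of regulatory genes in each library (points) with the mean (line), for KO, het and wt from left to right, with all 17 regulatory genes on the left and without Psmd1, Psmd2 and Psmd3 on the right. KO is lowest on the left and overlaps het on the right.

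In het against wt, the comparison for loss of 1 allele, none of the 45 genes was called by edgeR, DESeq2 or limma-voom. The background was 0.173% of all tested genes. With simulated data for these groups, 11 of 100 changes of 0.5 on the log2 scale were recovered. Those changes were placed at random among all tested genes, so that share need not hold for the more abundant proteasome genes. At an unadjusted p under 0.05 edgeR gave 8 of the 45, and 893 of all 10952 tested genes. The median log2 change of the 45 genes was -0.09, against 0.01 over all tested genes. The het libraries were both lower than either wt library in 19 of the 45 genes and in 10 of the 14 core genes, against 18.8% of all tested genes. All 14 core genes had a log2 change below 0, as did 5365 of all 10952 tested genes. The core values ran from -0.34 in Psma4 to -0.03 in Psmb2. All 14 also stayed below 0 with scaling by DESeq2 size factors and by library size alone, but these scalings hardly differ between het and wt. The core median was -0.17 with TMM, -0.18 with DESeq2 size factors and -0.19 by library size alone, so this was a weak check. The median of the 45 genes was -0.14 without het replicate 2 and -0.04 without het replicate 3. For Psma4 the 95% interval was -0.59 to -0.10, although its edgeR adjusted p was 0.372. These genes share the same 4 libraries and are not independent of each other.

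In KO against het, 11 of the 45 genes were called (24.4%), against 31.2% of all tested genes. Of these, 7 were higher in KO, with a background of 13.9% for that direction, and 4 lower, with a background of 17.2%. The log2 change by edgeR was 1.07 ± 0.11 for Psmd2, 0.59 ± 0.11 for Psmd1, 0.31 ± 0.11 for Psmd3 and 0.54 ± 0.12 for Psme3 (SE, n = 2 libraries each). Psme4 changed by -1.30 ± 0.14 (SE) between KO and het. Psmd5 rose by 0.59 on the log2 scale, Psme1 fell by 0.50, Psmb4 fell by 0.39 and Psmd11 fell by 0.34. Of the 15 alternatives, the call in KO against het was lost in 9 for Psme1, in 7 for Psmb4, in 5 for Psmd3 and in 1 for Psmd5. For Psmd11 it was lost in 9, and the direction turned in 1, to 0.04 with scaling by library size alone, under which Psmb4 was at -0.01 and Psme1 at -0.12. Without KO replicate 1, 5 genes were called, without KO replicate 2, 6, and without het replicate 3, 7. Psmd7 and Psmd12, lid subunits not called against wt, rose against het, with log2 changes of 0.31 and 0.34 and edgeR adjusted p of 0.0366 and 0.0313, and both calls were lost without either KO library. In contrast, Psmb5, Psme2 and Psmd8 were called against wt and not against het, with log2 changes of 0.02, -0.04 and -0.10 in KO against het. This comparison shares the KO libraries with KO against wt, and the differences between the 2 comparisons were not tested.

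**Figure D5:**
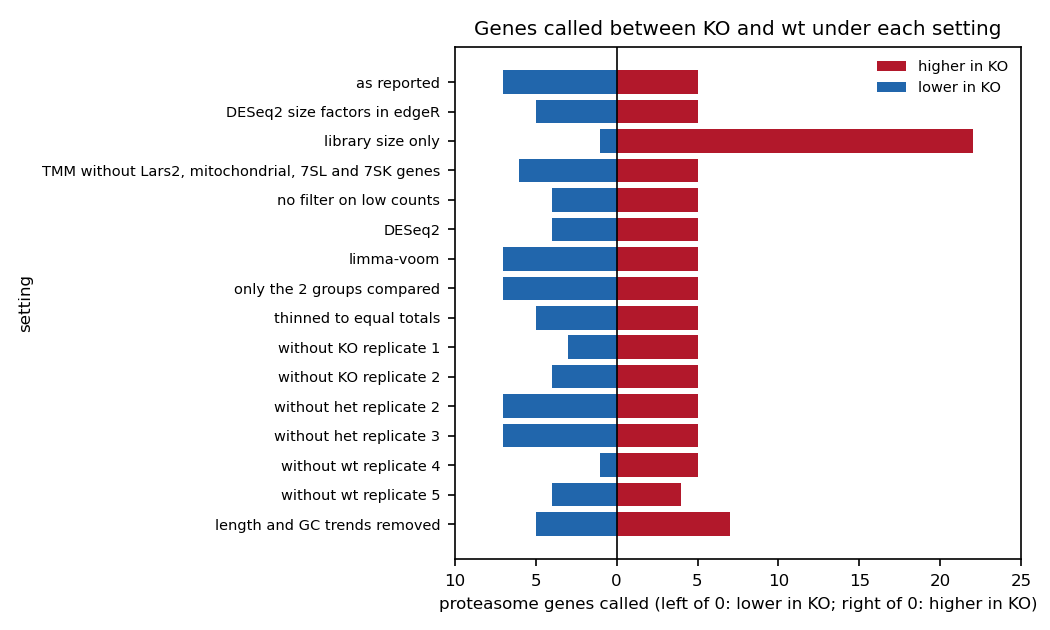
Number of proteasome genes called between KO and wt under each setting, higher in KO to the right of 0 and lower in KO to the left. The count as reported is 5 higher and 7 lower, and scaling by library size alone gives 22 higher and 1 lower.

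Genes that act around the proteasome were compared between KO and wt. In that comparison 14.7% of all tested genes were called higher in KO and 17.3% lower, and the counts of each list stand beside these shares. Proteasome-associated genes outside the symbol pattern had 2 higher and none lower of 11 tested. They were Ube3c, a ligase that extends ubiquitin chains on the particle, at 131 ± 1.88 CPM in KO and 85.3 ± 5.58 CPM in wt, and Zfand2a, an arsenite-induced proteasome partner, at 26.9 ± 4.21 CPM in KO and 11.6 ± 1.17 CPM in wt (SD, n = 2 each). Genes of proteasome transcription had 2 higher and 2 lower of 14. Nfya, a subunit of the NF-Y factor, fell to 6.56 ± 0.641 CPM in KO, against 64.8 ± 5.04 CPM in wt. Nfe2l2 fell by 0.62 on the log2 scale, while Nfe2l1, the main activator of proteasome genes when the particle is inhibited, rose by 0.60 and Mafk by 0.72. Among 9 tested target genes of Nfe2l2, 3 rose in KO and none fell.

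Ubiquitin and E1 genes had 1 higher and 3 lower of 9. On the log2 scale, the polyubiquitin gene Ubb fell by 0.34 and Nedd8, which encodes a ubiquitin-like modifier of cullins, fell by 0.33. With scaling by library size alone, Ubb and Nedd8 turned to 0.02 and 0.03. No other gene called in these lists changed direction under that scaling. Among 16 tested ubiquitin receptors and Vcp cofactors, 5 were higher and 3 lower. Ubqln2, a shuttle receptor, stood at 32.2 ± 2.20 CPM in KO and 222 ± 19.8 CPM in wt, and Rad23b at 62.1 ± 0.206 CPM in KO and 133 ± 5.84 CPM in wt. Vcp, an unfoldase that extracts ubiquitinated proteins, stood at 930.3 ± 21.04 CPM in KO and 520.3 ± 19.8 CPM in wt, and Ubqln1 at 306 ± 26.3 CPM in KO and 181 ± 6.23 CPM in wt.

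Cullin and anaphase-promoting complex genes had 10 higher and 1 lower of 22, with a median log2 change of 0.29, against -0.02 over all tested genes. Those with the lowest adjusted p were Cdc23, Anapc5, Cul2 and Skp2, with log2 changes of 0.83, 0.52, 0.76 and 0.90. Antigen presentation and interferon genes had 1 higher and 2 lower of 14, with log2 changes of -0.65 in B2m, the light chain of class I molecules, and 0.49 in Pdia3, a chaperone of their assembly. Autophagy genes had 2 higher and 4 lower of 18, with log2 changes of -0.79 in Gabarap, -1.25 in Map1lc3a, -0.49 in Map1lc3b and 0.77 in Nbr1. COP9 signalosome genes had 1 higher of 10, Cops8, with a log2 change of 0.38 and an edgeR adjusted p of 0.0470. In het against wt no gene of these 9 lists was called by edgeR.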

How the data were processed

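The 6 libraries were compared, 2 in each of the KO, het and wt groups. The authors deposited a table of expected counts per gene, estimated reads that need not be whole; per the submitters' processing notes CASAVA, cutadapt and RSEM on GRCm38 were used, without versions. Symbols, positions and transcripts came from GENCODE mouse release M21, which matched 97.9% of identifiers. The table held 0 count columns of other samples. The labels disagree on single or paired reads.

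Expected counts were rounded and analysed in R 4.3.3 with edgeR 4.0.16 (TMM, filterByExpr minimum count of 10, robust quasi-likelihood F tests, two-sided, all 6 libraries in 1 fit, 3 residual degrees of freedom). Calls used an adjusted p under 0.05 over 10952 genes. DESeq2 1.42.0 and limma 3.58.1 were alternatives. The pipeline was tested on simulated data over 10952 genes, with 100 changed genes for each comparison and size. Of changes of 1 on the log2 scale, it recovered 66 between KO and wt, 62 between het and wt, and 55 between KO and het. Of changes of 0.5, it recovered 13, 11 and 8 in the same order. Most changes of 0.5 were thus missed, so a missing call does not show that a gene was unchanged. RSEM divides reads among similar genes, so copies and overlapping genes carry uncertain values. Of the 50 genes, 15 have an exon that overlaps another gene. Among them are Psmb7, Psme1 and Psmc3ip, which overlap Nek6, Emc9 and Mlx on the opposite strand. Named genes were the immune subunits and their partners, the 3 lowest adjusted p in KO against wt per role, and up to 4 genes per related list; some genes of these lists are not reported here. The members and lists were chosen with earlier results of these data known.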

Additional observations from a re-analysis of the deposited data

How the results depend on the processing

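In the 15 alternatives tried, Psmd1, Psmd2, Psmd3, Psme3 and Psme4 kept their direction and call in KO against wt. The call of Psmd5 was lost without wt replicate 5 (adjusted p of 0.0634 by edgeR), those of Psmb4 and Psme1 without wt replicate 4 and with scaling by library size only, and that of Psmd8 in these and without KO replicate 1. Psmb5 and Psme2 each lost their call in at least 10 alternatives and Psmd11 in at least 6. Leaving out 1 library at a time gave 6 to 12 genes called in KO against wt, the lowest without wt replicate 4, and 5 to 10 in KO against het, the lowest without KO replicate 1.

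With scaling by library size only, 23 genes were called in KO against wt (22 higher, 1 lower) and 33 in KO against het (32 higher, 1 lower). The log2 change of Psmb5 was then 0.0505 and of Psmd11 0.0153 in KO against wt and 0.0437 in KO against het, opposite to the values reported. The median log2 change of the members was then 0.32 in KO against wt and 0.45 in KO against het, but that of all tested genes moved as well, to 0.35 and 0.36, so members minus all genes stayed at -0.03 and 0.09. DESeq2 called 5 members and 2180 of all genes in KO against het, and 9 members and 2258 of all genes in KO against wt. With length and GC trends removed, an alternative chosen after seeing the data, 17 members were called in KO against het (15 higher, 2 lower), with 3267 of all genes (1477 higher, 1790 lower), and the medians were 0.0644 in KO against wt and 0.221 in KO against het. Leaving out 1 library, the medians ran from -0.0895 to 0.0310 in KO against wt and from -0.0104 to 0.177 in KO against het, and all genes called in KO against wt from 2043 to 3815. In het against wt the count of members called was 0 in all 15 alternatives.

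No paired analysis was possible because het and KO share only replicate number 2 and wt shares none. Psmb8 and Psmb9 had too few reads to enter the tests.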
